A study of Mus musculus with 2 samples.

Results

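The C/EBP and AP-1 transcription factors described here are 10 genes of the 24532 in the deposited count table, namely *Cebpb*, *Cebpd* and *Cebpg* of the C/EBP family, the FOS-type genes *Fos*, *Fosl1* and *Fosl2*, the JUN-type genes *Jun*, *Junb* and *Jund*, and *Atf3*. They were chosen by family, and *Cebpb* was selected on its rise in these same libraries. Every difference between the libraries given below is therefore a description and carries no test. All 10 genes had reads and a TPM (a level scaled for gene length and for the library) in both libraries.

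The cells were cardiac myofibroblasts, the matrix-producing cells of the injured heart, from mice labelled C57BL/6 (the methods name C57BL/6J for work on isolated myofibroblasts) taken 3 days after myocardial infarction (MI). The study's methods describe enzymatic digestion of the infarcted heart and removal of CD45-positive cells, followed by adherent culture in DMEM with serum. Cells were given either siCtrl, a control siRNA, or si*Vgll3*, which targets the transcription cofactor *Vgll3*, each at 12.5 nM with a lipid reagent, and RNA was collected 72 h later. Both groups thus share the strain, the MI, the culture and the transfection, and si*Vgll3* is 1 siRNA rather than a set. Each condition has 1 library, so no difference has a replicate check, and the number of mice behind each library is not given in the sources used here.

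C/EBP and AP-1 proteins belong to the basic leucine zipper (bZIP) class, in which a basic stretch contacts DNA and a leucine zipper joins a pair of proteins. FOS-type proteins pair with JUN-type proteins to form AP-1, whereas JUN-type proteins can also pair among themselves and C/EBP proteins pair mainly with one another. Several of these genes are immediate-early genes whose mRNA responds quickly to serum, growth factors, stress and cytokines, and in fibroblasts the factors are known for control of growth, protease, cytokine and matrix genes.

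Upstream sequence is shown for *Cebpb* and *Fos*, since they are the genes past the threshold used below for which the RefSeq table of promoters had a window. The 120 bases before the annotated start are printed 5′ to 3′ on the gene's strand, GRCm38.p6, with capitals on matches of 2 motifs searched on both strands. One is TGACG, part of the cAMP response element (CRE), and the other is TATAAA, the box found near many starts. The *Cebpb* stretch is chr2:167688795-167688914 on the + strand and the *Fos* stretch is chr12:85473770-85473889 on the + strand.
Cebpb: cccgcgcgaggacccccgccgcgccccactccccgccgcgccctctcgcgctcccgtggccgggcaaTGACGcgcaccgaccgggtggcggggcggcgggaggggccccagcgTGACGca
Fos: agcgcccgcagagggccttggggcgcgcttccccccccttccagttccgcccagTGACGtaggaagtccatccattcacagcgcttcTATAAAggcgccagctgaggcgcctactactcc
*Cebpb* held TGACG at −53 and −7, counted from the start with −1 as the last base before it, and *Fos* held it at −66 with TATAAA at −33. TGACG was found in this stretch for 4 of the 8 members with a window (*Cebpb*, *Fos*, *Junb* and *Atf3*) and in 11.7% of all 32851 promoters. TATAAA was found in this stretch for 1 of the 8 and in 6.34% of all promoters. The whole window used for the other motifs below also reaches past the start. There, TATAAA was found for 3 of the 8 and in 13.6% of all promoters. Its added matches began at base 22 in *Cebpb* and base 1 in *Junb*, with base 1 as the first base of the annotated start. TGACG was found in the whole window for 4 of the 8 and in 20.8% of all promoters. These letters were searched after the values of the genes were known.

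Other motifs were searched in the whole window of 250 bases before and 50 after the start. The AP-1 letters TGANTCA, the whole CRE TGACGTCA, the TEAD letters GGAATG, the STAT letters TTCNNNGAA and the serum response element had no match in any of the 8 windows. They are in 7.81%, 1.79%, 14.7%, 8.30% and 1.63% of all promoters of that length, respectively. The C/EBP letters TTGCNNAA, in 10.8% of all promoters, matched 1 member, *Jund*, at −152 in the stretch tgagagatccTTGCTCAAaacacaaagt (chr8:70697577-70697604, + strand, capitals on the match). RefSeq places the *Jund* start upstream of the GENCODE start, so this window is not the sequence next to the GENCODE start. The windows of *Atf3* and *Fosl2* lie inside the GENCODE span of the gene, so they are not next to its outermost GENCODE start. *Cebpd* and *Fosl1* had no window. Sites further upstream, and letters that vary from those given, were not searched, so no match here does not mean that a gene lacks such a site. A match is a description of letters, and binding was not measured.

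The siRNA target was checked first. *Vgll3* had 42925 reads with siCtrl and 16524 with si*Vgll3* (202 and 84.0 TPM), which left 41.6% of the siCtrl level. The depth was 140815237 and 125789276 reads on genes, in the order siCtrl and si*Vgll3*. The difference of each gene is given as M, log2 of the TPM after si*Vgll3* over the TPM after siCtrl, and its level as A, log2 of the mean TPM. Genes with A above 0 and M above 0.5 or below −0.5 were read as past the fold, and 11754 genes had A above 0. Square brackets after the M of a gene hold a 95% Clopper-Pearson interval, taken from the reads of both libraries and moved to the TPM scale. After the M of a family sum, they hold a 95% normal approximation from the Poisson errors of the summed genes. Either interval covers counting error only and says nothing of the spread between cultures. Each takes reads as independent, which PCR copies are not, so it may be too narrow even for counting error.

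Of the 10 genes, 3 had M above 0.5 (*Cebpb*, *Fosl1* and *Fos*), beside 5.73% of all genes with A above 0. None of the 10 (0 genes) had M below −0.5, where 11.4% of all genes lay. M was above 0 for 8 of the 10 genes, against 43% of all genes, and the exceptions were *Cebpg* and *Atf3*. The median M was 0.20 over the 10 genes and −0.05 over all genes. Since *Cebpb* was selected on this contrast and members were taken with results known, nothing is read from these shares. Nearest to the threshold of 0.5 were *Fos*, past it at an M of 0.68, and *Jun*, not past it at 0.46. In bulk RNA, a change in the number of cells of a type and a change in RNA per cell cannot be told apart.

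**Figure D1:**
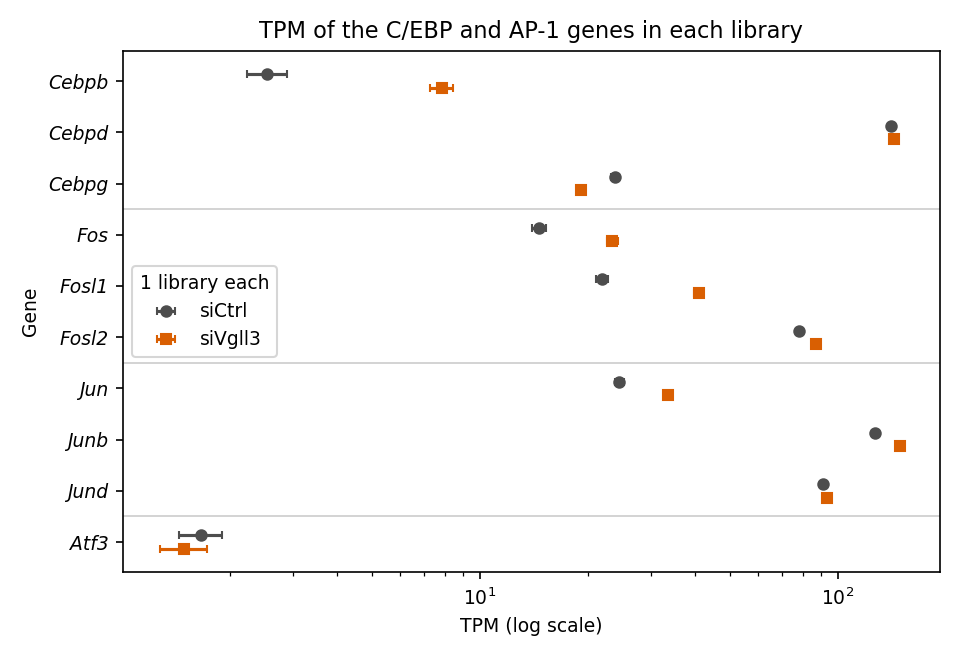
TPM of each gene (log axis) in the siCtrl library (grey circles) and the si*Vgll3* library (orange squares), with bars for the 95% Poisson interval of the reads (counting error, 1 library each). The horizontal distance between both symbols is widest for *Cebpb*, at 2.55 and 7.82 TPM, while those of *Cebpd* and *Jund* nearly coincide.

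*Cebpb* encodes C/EBPβ, a C/EBP factor of the acute-phase and cytokine response that is made as long activating and short inhibitory proteins from the same mRNA, which read counts do not separate. *Cebpb* had 249 reads with siCtrl and 703 with si*Vgll3*. Its TPM was 2.55 in siCtrl, with a counting interval of 2.24 to 2.89. In si*Vgll3* it was 7.82 TPM, with an interval of 7.25 to 8.42. The si*Vgll3* library was thus the higher, and the counting intervals of both levels did not overlap. The M was 1.62 [1.41, 1.83], a 3.07-fold higher level, which was the 66th highest M of the 11754 genes and the only member's M above 1 (1.76% of all genes). In level, *Cebpb* stood at percentile 9.62 of these genes with siCtrl and 28.6 with si*Vgll3*, so it was among the less abundant genes in both libraries. With 1 TPM added to both libraries, which damps low genes, its M was 1.31.

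*Cebpb* (NCBI gene 12608) is a single-exon gene of 1504 bases at chr2:167688915-167690418 on the + strand in GENCODE vM21 (GRCm38), and its transcript is 67.2% G and C. Its exon shares 312 bases with *Tmem189* on the opposite strand. *Tmem189* had 8505 reads with siCtrl and 6525 with si*Vgll3*, an M of −0.27, which is the opposite direction to *Cebpb*. The library kit keeps strand, but whether the counting used it is not given in the sources used here, so reads from the shared bases may be split uncertainly.

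The other C/EBP genes did not follow *Cebpb*. *Cebpd* encodes C/EBPδ, likewise a factor of the acute-phase response, and had 20348 reads with siCtrl and 19154 with si*Vgll3*. Its level was 141 TPM with siCtrl and 143 TPM with si*Vgll3*, an M of 0.02 [−0.00, 0.05] whose interval holds 0. *Cebpd* was the most abundant of the 10 genes by TPM in siCtrl, at 55.3 times the *Cebpb* level there and 18.3 times in si*Vgll3*. *Cebpg* encodes C/EBPγ, a short partner protein of 150 residues without its own activation domain. *Cebpg* was at 23.9 TPM with siCtrl and 19.2 TPM with si*Vgll3*, with 7160 and 5325 reads. It was the lowest member by M at −0.32 [−0.37, −0.26], within the threshold but with a counting interval below 0.

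Added over the 3 C/EBP genes, the level was 167 TPM with siCtrl and 170 TPM with si*Vgll3*, an M of 0.03 [0.00, 0.05]. Within this sum, *Cebpb* made up 1.52% in siCtrl and 4.59% in si*Vgll3*. *Cebpg* made up 14.2% and 11.2%, and *Cebpd* 84.2% in both. The family total thus moved little while the *Cebpb* share was 3.07 percentage points higher and the *Cebpg* share 3.00 points lower.

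**Figure D2:**
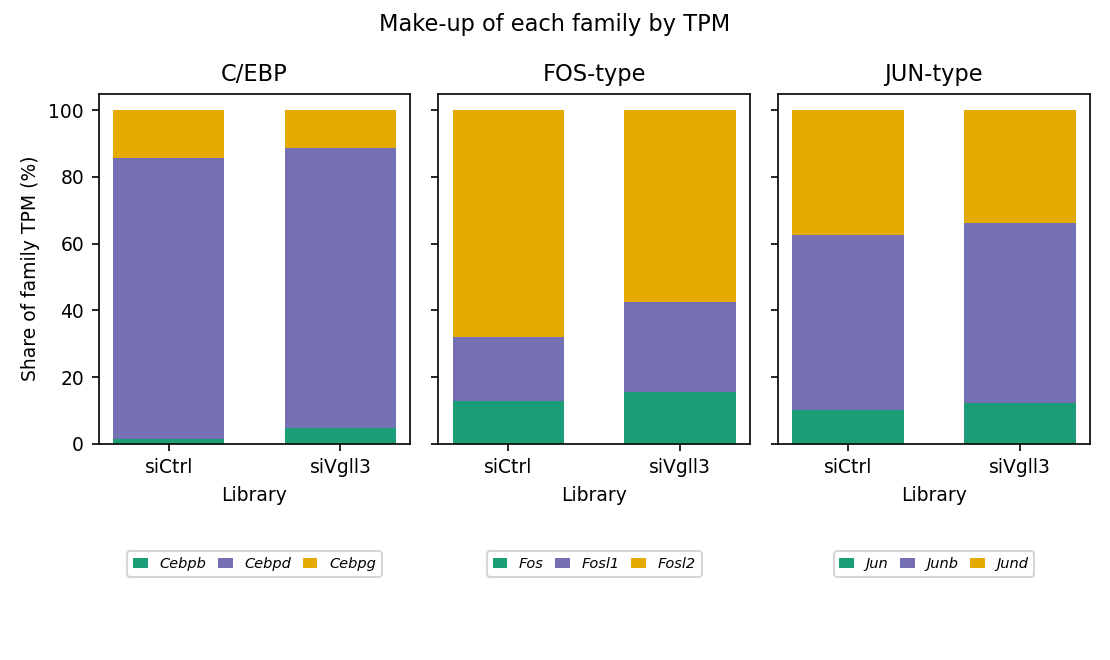
Share of each gene in the summed TPM of its family (%, bars stacked to 100) for the C/EBP, FOS-type and JUN-type genes, in the siCtrl and si*Vgll3* libraries (1 library each, no error bars). *Fosl2* takes 68.1% of the FOS-type sum in siCtrl and 57.5% in si*Vgll3*, and *Cebpd* takes 84.2% of the C/EBP sum in both.

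FOS-type proteins bind DNA mainly with a JUN-type partner. Of the FOS-type genes, 2 of 3 had M above 0.5, beside the 5.73% of all genes given above, and here too nothing is read from the share. *Fosl1* encodes FRA-1, an AP-1 subunit without the long C-terminal activation domain of FOS. *Fosl1* had 2387 reads with siCtrl and 4116 with si*Vgll3*. Its level was 21.9 TPM with siCtrl and 40.9 TPM with si*Vgll3*, an M of 0.90 [0.82, 0.97] or 1.86-fold. This was the 246th highest M of all genes with A above 0, and the added 18.9 TPM was larger than that of *Cebpb*, 5.27 TPM. *Fosl1* (chr19:5447547-5455946, + strand, 4 exons) shares 1163 exon bases with *Ccdc85b* on the opposite strand, which had 2201 reads with siCtrl and 1474 with si*Vgll3*, an M of −0.47.

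*Fos*, the founding FOS-type gene and a classical immediate-early gene, had 1952 reads with siCtrl and 2900 with si*Vgll3*. Its level was 14.6 TPM with siCtrl and 23.4 TPM with si*Vgll3*, an M of 0.68 [0.60, 0.77] or 1.61-fold. *Fos* (chr12:85473890-85477273, + strand, 4 exons) shares no exon base with another counted gene, so it is the member past the fold to which overlap does not apply. *Fosl2*, which encodes FRA-2, was the most abundant FOS-type gene, with 29151 and 30116 reads. Its level was 77.9 TPM with siCtrl and 86.9 TPM with si*Vgll3*, an M of 0.16 [0.14, 0.18], within the threshold. The fourth FOS-type gene, *Fosb*, is not one of the 10 genes and had 231 reads with siCtrl and 218 with si*Vgll3*, at an A of −0.03.

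The FOS-type sum was 114 TPM with siCtrl and 151 TPM with si*Vgll3*, an M of 0.40 [0.38, 0.43]. *Fosl1* made up 19.2% of it in siCtrl and 27.0% in si*Vgll3*, and *Fos* 12.8% and 15.5%. The level of *Fosl2* was 3.55 times that of *Fosl1* in siCtrl and 2.13 times in si*Vgll3*. The FOS-type mRNA was therefore still mostly *Fosl2* in both libraries, with a larger *Fosl1* share in si*Vgll3*.

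The JUN-type genes lay nearer to 0 in M. *Jun*, the founding JUN-type gene and itself a known AP-1 target, had 4989 reads with siCtrl and 6336 with si*Vgll3*. Its level was 24.5 TPM with siCtrl and 33.6 TPM with si*Vgll3*, an M of 0.46 [0.40, 0.51], so the threshold lies inside its counting interval. *Jun* was at an M of 0.51 with CPM (reads scaled for library size only) in place of TPM, and so past the fold. *Junb*, whose protein can restrain JUN at some targets, was at 127 TPM with siCtrl and 149 TPM with si*Vgll3* (14878 and 16246 reads), an M of 0.24 [0.21, 0.27]. *Jund*, the member known for steady expression in resting cells, was at 90.9 TPM with siCtrl and 93.3 TPM with si*Vgll3* (16697 and 15865 reads), an M of 0.04 [0.01, 0.07].

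Their sum was 242 TPM with siCtrl and 276 TPM with si*Vgll3*, an M of 0.19 [0.17, 0.21]. *Junb* made up 52.3% and 54.1% of it, *Jund* 37.5% and 33.8%, and *Jun* 10.1% and 12.2%. For each FOS-type TPM there were 2.12 JUN-type TPM with siCtrl and 1.83 with si*Vgll3*, so JUN-type mRNA was in excess in both libraries. Over the 6 AP-1 genes together, the level was 356 TPM with siCtrl and 428 TPM with si*Vgll3*. Of the difference of 71.2 TPM, 22.8 TPM came from *Junb* and 18.9 TPM from *Fosl1*.

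*Atf3*, a stress-induced bZIP factor that pairs with JUN-type and C/EBP proteins, was the least abundant member. It had 210 reads with siCtrl and 175 with si*Vgll3*, which are 1.66 and 1.49 TPM. The M of −0.16 [−0.46, 0.14] holds 0, so at these counts a difference of *Atf3* was not detectable, and the interval reaches from nearly the lower threshold to 0.14.

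**Figure D3:**
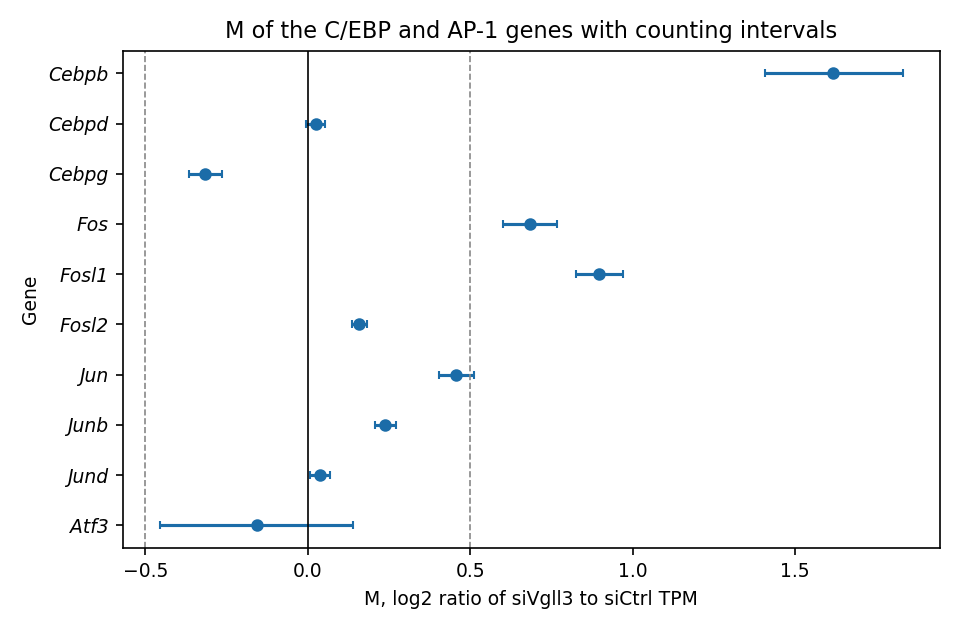
M of each gene (log2 ratio of si*Vgll3* to siCtrl TPM) with its 95% counting interval, with dashed lines at −0.5 and 0.5. Only the intervals of *Cebpb* [1.41, 1.83], *Fos* [0.60, 0.77] and *Fosl1* [0.82, 0.97] lie wholly beyond a dashed line, and that of *Jun* crosses it.

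Ranked by TPM in siCtrl, the order was *Cebpd*, *Junb*, *Jund*, *Fosl2*, *Jun*, *Cebpg*, *Fosl1*, *Fos*, *Cebpb* and *Atf3*. In this order, only *Jun* and *Cebpg* had counting intervals that overlapped, at 24.5 and 23.9 TPM. In si*Vgll3* the order was *Junb*, *Cebpd*, *Jund*, *Fosl2*, *Fosl1*, *Jun*, *Fos*, *Cebpg*, *Cebpb* and *Atf3*, with no overlap of neighbours. *Junb* and *Cebpd* thus exchanged the first place, *Fosl1* moved above *Jun*, and *Fos* moved above *Cebpg*, while *Cebpb* stayed ninth. The top of the order depends on the gene models. With reads per kilobase of the GENCODE transcript in place of TPM, the order in both libraries began with *Jund*, *Junb* and *Cebpd*, since GENCODE gives *Cebpd* 3746 and *Jund* 1668 bases where RefSeq gives 2260 and 2878. With that length, *Jund* rather than *Junb* was the largest JUN-type gene in both libraries. The family sums and shares, and the ratio of JUN-type to FOS-type TPM, likewise depend on the gene models. The M of a single gene is not affected by that length.

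*Cebpb*, *Cebpd*, *Jun*, *Junb* and *Jund* have coding transcripts of 1 exon in GENCODE, and *Fos*, *Fosl1*, *Fosl2* and *Atf3* have 4. Single-exon structure is thus shared by all JUN-type members but does not separate genes by M, since *Cebpb* at 1.62 and *Cebpd* at 0.02 both have it. Besides *Cebpb* and *Fosl1*, *Cebpd* shares 562 exon bases with *Spidr* and *Junb* 173 with *Prdx2*, each a counted gene on the opposite strand. *Spidr* had an M of −0.26 and *Prdx2* of 0.30. Genes without counts here overlap other members. *Jund* shares 877 exon bases with the antisense gene *Gm11175* and *Jun* 232 with the antisense gene *Junos*. *Cebpg* shares 73 with *Gm44836* and 4 with *Gm45095*. Whether reads of these genes were counted for a member is not known. The proteins encoded by these transcripts run from 150 residues for *Cebpg* to 380 for *Fos*, with 296 for *Cebpb*.

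**Figure D4:**
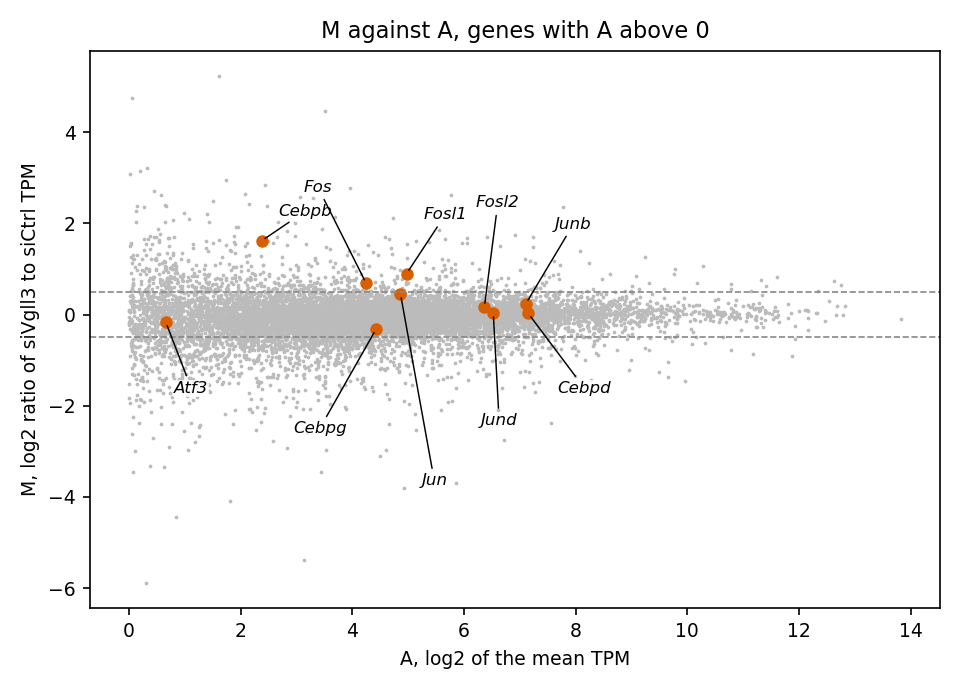
M (log2 ratio of si*Vgll3* to siCtrl TPM) against A (log2 of the mean TPM) for the 11754 genes with A above 0 (grey points, 1 library per condition), with the 10 C/EBP and AP-1 genes in orange and dashed lines at −0.5 and 0.5. *Cebpb* (A 2.37, M 1.62) has the highest M of the 10 members, and the 4 most abundant members lie between the dashed lines.

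The members were then set among all listed bZIP genes. Of 52 such genes, 42 had A above 0, with 7 above an M of 0.5 and 8 below −0.5. Over all genes with A above 0, 5.73% were higher and 11.4% lower. These shares stand beside every list count given below. The 3 members past the fold were 3 of the 7, and the other 4 were *Hlf*, *Crem*, *Creb5* and *Maff*, out of 32 bZIP genes that are not members. *Cebpb* had the second highest M of the 42, after *Hlf*, a circadian bZIP factor at 0.58 TPM with siCtrl and 1.83 TPM with si*Vgll3* (M 1.65). By TPM, *Cebpb* ranked 36th of the 42 in siCtrl and 34th in si*Vgll3*.

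Of 10 C/EBP relatives and partners with A above 0, 1 was higher and 3 were lower, with a median M of −0.14. The lower genes were *Dbp*, a circadian bZIP factor (21.7 and 11.6 TPM, M −0.91), *Ddit3*, the stress factor CHOP that pairs with C/EBP proteins (61.3 and 33.8 TPM, M −0.86), and *Trib3*, a pseudokinase of the stress response (53.0 and 31.7 TPM, M −0.74). *Trib1*, whose product targets C/EBPα for degradation, was at 16.2 and 21.0 TPM, an M of 0.38, and *Nfil3*, a repressor, at 52.3 and 58.0 TPM, an M of 0.15. *Cebpe* had 0 reads in both libraries, which allows up to 3 reads.

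Among 26 other bZIP genes with A above 0, 3 were higher and 6 lower, and the median M was −0.21. *Crem*, of the cAMP-responsive group, was at 12.4 TPM with siCtrl and 23.2 TPM with si*Vgll3*, an M of 0.90. *Creb5* and the small MAF gene *Maff* had M of 0.53 each, at 1.21 and 38.9 TPM in siCtrl. With 1 TPM added, *Creb5* was at an M of 0.32. *Maf* was the lowest of the bZIP genes, at 4.70 and 1.65 TPM (M −1.52), and *Nfe2l1*, a regulator of proteasome genes, was also lower (M −0.58). The most abundant bZIP genes were *Atf4*, the central factor of the integrated stress response, at 395 and 269 TPM (M −0.56), and *Atf5* at 386 and 301 TPM (M −0.36).

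Immediate-early genes, which share serum-responsive induction with *Fos* and *Junb*, were divided. Of 32 with A above 0, 6 were higher and 3 lower, with a median M of 0.00. *Ier3*, an early-response survival gene, was at 52.6 TPM with siCtrl and 149 TPM with si*Vgll3* (M 1.50), and the kinase gene *Plk2* at 58.3 and 100 TPM (M 0.79). *Dusp1*, which encodes a phosphatase of MAP kinases, was at 42.9 and 69.2 TPM (M 0.69). In the other direction, *Klf2* had an M of −0.76, *Egr3* of −0.68 and *Egr1* of −0.52, the last at 40.1 TPM with siCtrl and 28.0 TPM with si*Vgll3*. The abundant *Cyr61* (620 and 617 TPM, M −0.01) and *Rhob* (164 and 193 TPM, M 0.23) were within the threshold. The M of *Egr1* was between −0.48 and −0.47, no longer past the fold, with CPM, TMM or DESeq2 scaling or with centred M.

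Kinases and upstream factors of AP-1 showed less movement. Of 27 with A above 0, 1 was higher and 0 were lower, at a median M of −0.02. The higher gene was *Map2k7*, a kinase of the JNK pathway, at 16.1 and 29.4 TPM (M 0.87). The kinase gene *Rps6ka1* (M 0.41), *Mapk7* (M −0.44), *Stat3* (M −0.29) and *Map3k5* (M −0.24) were within the threshold. mRNA does not report kinase activity or phosphorylation of JUN.

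Of 8 genes for TEAD factors, which VGLL3 binds, and for TEAD cofactors including *Vgll3*, 1 was higher and 1 lower. The lower was *Vgll3* itself (M −1.27), and the higher was *Tead4* at 1.57 TPM with siCtrl and 2.80 TPM with si*Vgll3* (M 0.84). *Tead2* had an M of 0.46 and passed 0.5 with the counts scaled as CPM or by TMM or DESeq2 and with centred M. *Yap1* (M 0.13), *Wwtr1* (M 0.12), *Vgll4* (M −0.24) and *Tead1* (M −0.21) were within the threshold.

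Genes known as targets of C/EBP factors moved in both directions. Of 18 with A above 0, 9 were higher and 4 lower, beside 5.73% and 11.4% of all genes. Their median M was 0.47. *Ptgs2*, the inducible cyclooxygenase gene, was at 15.3 TPM with siCtrl and 93.4 TPM with si*Vgll3* (M 2.61). *Lcn2*, an acute-phase iron-carrier gene, was at 3.13 and 12.7 TPM (M 2.02), and the chemokine gene *Cxcl1* at 6.53 and 17.8 TPM (M 1.44). Lower were *Il1rn*, the interleukin-1 receptor antagonist gene (1.84 and 0.671 TPM, M −1.45), the haptoglobin gene *Hp* (34.2 and 16.9 TPM, M −1.02) and the complement gene *C3* (66.9 and 36.8 TPM, M −0.86). Of the most abundant of the list, *Ptx3* had an M of 0.90 and *Csf1* of 0.35. The acute-phase genes *Lcn2* and *Hp* thus lay past the fold on opposite sides.

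Of 25 genes known as AP-1 targets with A above 0, 12 were higher and 1 lower, beside 5.73% and 11.4% of all genes. Their median M was 0.27. *Il11*, a cytokine gene of the interleukin-6 family, was at 0.996 TPM with siCtrl and 21.9 TPM with si*Vgll3* (M 4.46). The chromatin-protein genes *Hmga1* (10.1 and 29.0 TPM, M 1.53) and *Hmga2* (29.6 and 68.5 TPM, M 1.21) came next. The lower gene was the metallothionein gene *Mt2*, at 195 and 116 TPM (M −0.75), and the next lowest were *Ezr* (M −0.24) and *Krt18* (M −0.12), both within the threshold. The abundant *Fn1*, for fibronectin, had an M of 0.04. All these lists were written with earlier results of these libraries known, the listed targets also answer to other factors, and no binding or protein was measured. Over the 7 lists together, 32 of 145 genes were higher (22.1%) and 18 lower (12.4%), with a median M of 0.03. Over all genes with A above 0, 5.73% were higher and 11.4% lower, so the lower share of the lists was near that of all genes.

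**Figure D5:**
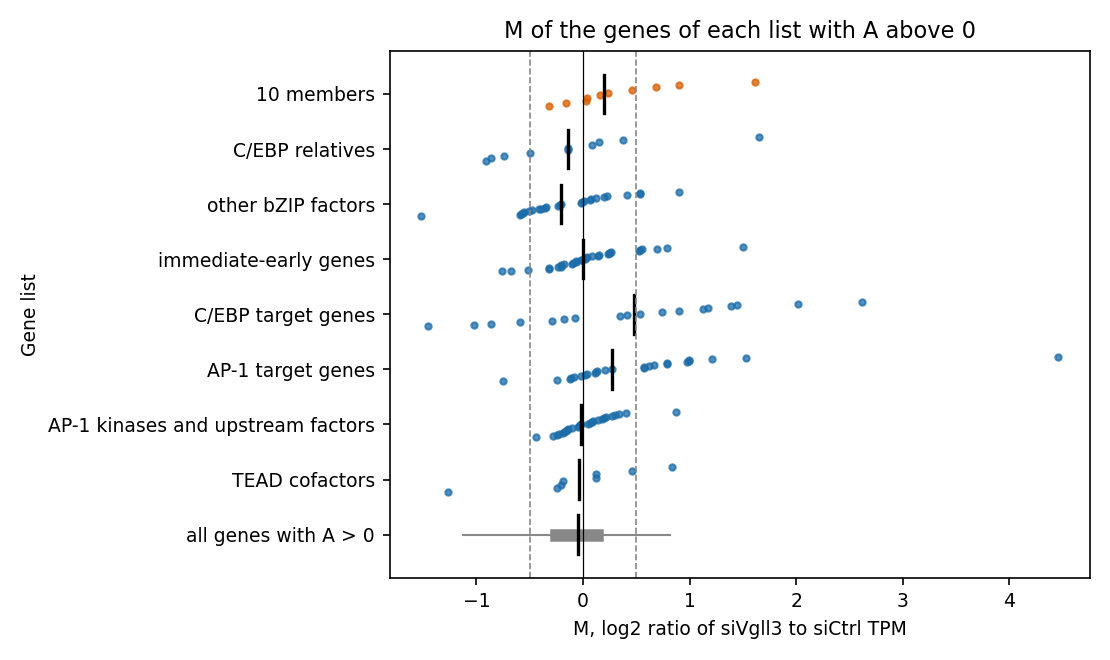
M (log2 ratio of si*Vgll3* to siCtrl TPM) of every gene with A above 0 in the 10 C/EBP and AP-1 genes (orange) and in 7 gene lists (blue), with a black bar at each median, dashed lines at −0.5 and 0.5, and for all genes the middle 50% (thick grey) and 95% (thin grey). The medians run from −0.21 for other bZIP factors to 0.47 for C/EBP targets.

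By level in both libraries, the genes nearest to *Cebpb* were *Cbll1*, *Gm12603*, *Gcnt1*, *Rem1* and *Mdm4*, at Euclidean distances of 0.11, 0.17, 0.24, 0.31 and 0.31 over the log2 TPM of the 2 libraries. *Cbll1* was at 2.70 TPM with siCtrl and 8.19 TPM with si*Vgll3*, and *Mdm4* at 3.01 and 8.98 TPM. With 2 libraries, this likeness says only that level and M are close.

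Markers of the labelled cells and of other cells were read in the same libraries. All 14 fibroblast and myofibroblast markers had A above 0, with *Acta2* at 3296 TPM with siCtrl and 3866 TPM with si*Vgll3*. Of these, 3 were higher, the contractile genes *Cnn1* (M 1.13) and *Tagln* (M 0.52) and the surface marker *Thy1* (M 0.72). Lower were 7, among them *Col1a1* (M −0.90) and *Postn* (M −1.22), and the sum of the list was 25183 and 22171 TPM. *Col1a2*, also lower at an M of −0.53, was within the threshold with CPM, TMM or DESeq2 scaling or with centred M. Leukocytes, in which *Cebpb* is also known to be expressed, had 5 of 15 markers with A above 0, and the sum of the list was 16.3 TPM with siCtrl and 14.8 TPM with si*Vgll3*. Of the 5 leukocyte markers with A above 0, 3 were higher and 1 lower, beside 5.73% and 11.4% of all genes. The higher were *Cd53* (0.76 and 5.91 TPM, M 2.96), *Cd14* (1.53 and 2.35 TPM, M 0.62) and *Csf1r* (1.29 and 1.83 TPM, M 0.504). With 1 TPM added, *Cd14* and *Csf1r* were within the threshold. The lower was *Lyz2* (10.9 and 3.13 TPM, M −1.80). The defining genes *Ptprc*, *Adgre1*, *Itgam* and *Tyrobp* were at 0 reads in both libraries. Endothelial markers had 5 of 10 with A above 0 and a sum of 34.1 and 32.2 TPM, in which members went opposite ways. *Tek* was at 19.5 and 13.4 TPM (M −0.54), whereas *Cdh5* had an M of 0.50, *Pecam1* of 0.47 and *Egfl7* of 0.42, and below the filter on A *Kdr* had 81 and 146 reads and *Cldn5* 11 and 94 reads. *Tek* was no longer past the fold with CPM, TMM or DESeq2 scaling or with centred M, while *Cdh5* and *Pecam1* were then above 0.5. *Egfl7* was above 0.5 with CPM, TMM and DESeq2 scaling, but not with centred M. Mural cell markers had 2 of 8 with A above 0 and a sum of 111 and 112 TPM, of which *Mcam* made up 94.9 and 102 TPM. *Notch3* was at 14.1 and 7.97 TPM (M −0.82), and *Myh11*, below the filter, had 205 and 71 reads. Of 10 cardiomyocyte markers, 8 were at 0 reads in both libraries, and *Tnnt2* was at 60.0 and 10.4 TPM. The part of these differences in the members' M was not tested.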

How the data were processed

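The authors sequenced mRNA of mouse cardiac myofibroblasts after siCtrl or si*Vgll3*, with 1 library per condition, from a TruSeq Stranded mRNA LT kit on an Illumina NovaSeq instrument. According to the study's methods and the submitters' processing notes, reads were checked with FastQC, trimmed with Trimmomatic (reads under 36 bp removed), aligned to mm10 with HISAT2 and assembled on known genes with StringTie. Tool versions, the annotation release and the strand setting of the counting are not given in the sources used here. The authors deposited raw read counts per gene, in whole numbers and not normalised. TPM values deposited for each library were already scaled by the authors for transcript length and depth.

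M and A were computed from TPM with nothing added, with the threshold of M below −0.5 at A above 0 from the study and its mirror for higher genes. The study's text does not define M and A, so the definitions are those chosen here. They gave 1341 lower genes, which is not the number that the study reports. Depth was 140815237 and 125789276 reads on genes, and the median gene with A above 0 had 3907 and 3379.5 reads. Precision of the M of a gene was given as 95% Clopper-Pearson intervals of read ratios (scipy 1.17.1), which were run on simulated Poisson counts. Those counts hold no PCR copies and no spread between cultures, so the run checks the calculation only. The intervals of the family sums were normal approximations and were not part of that run. Without replicates no model was fitted, and edgeR 4.0.16 (TMM) and DESeq2 1.42.0 were used for scaling only.

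The members and the gene lists were chosen with earlier results of these data known. The genes to name were all 10 members, *Vgll3*, the 3 highest and 3 lowest by M and the 2 most abundant of each pathway list, and the 5 nearest to *Cebpb*. Some genes that this rule takes are not reported here. Genes that overlap a member, the remaining bZIP genes past the fold, *Fosb*, *Cebpe* and the markers named were taken outside that rule after their values were seen. Gene models came from GENCODE vM21 (GRCm38) and upstream sequence from RefSeq (GRCm38.p6). Alternatives were CPM, TMM and DESeq2 scaling, 0.1 or 1 TPM added, centred M, A above 2 or no filter, a threshold of 1, the whole counting interval past 0.5, and levels per kilobase of GENCODE transcript. The count over members without an overlapping gene was added after seeing the data. The other assays of the study were not analysed here.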

Additional observations from a re-analysis of the deposited data

How the results depend on the processing

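No paired analysis was possible because siCtrl and si*Vgll3* hold 1 library each, which also means that no library could be left out. Each of the 10 members kept the sign of its M under every alternative run for it (8 each, and 7 for *Atf3*, which A above 2 leaves out). The filters on A and the added TPM cannot change a sign. Scaling and centring move all genes by nearly the same small amount, so they could change the sign only of a gene near 0. The kept signs are therefore no check of direction. The M of *Cebpb* ran from 1.31 with 1 TPM added to 1.66 with centred M, that of *Fosl1* from 0.87 to 0.95 and that of *Fos* from 0.65 to 0.73, while *Jun* passed 0.5 with CPM and with centred M. With a threshold of 1, the count of higher members went from 3 to 1, that of all genes to 207 higher and 384 lower, and that of the 7 lists together to 11 higher and 4 lower. Of the 6 members without an overlapping counted gene, 1 was higher (*Fos*), in an alternative chosen after seeing the data. Without a filter on A, 1428 of 14149 genes were higher and 2103 lower, and with A above 2, 393 of 9938 were higher. Requiring the whole counting interval past 0.5 left 442 higher genes and all 3 members. The other scalings moved the median M of all genes by up to 0.05. The depth limits *Atf3* and *Cebpb* most, at 175 to 703 reads, and the spread between cultures, which no library here measures, limits every comparison.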
